A study of Mus musculus with 6 samples.

Results

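The transcripts described here are those of 31 genes of mitochondrial fatty acid oxidation and ketogenesis, out of 56305 genes listed, in RNA-Seq of whole mouse liver. The genes were taken by name, from fatty acid uptake to the interconversion of ketone bodies, and the Ensembl identifiers of the files were matched to their symbols, which found all 31. Each of 6 libraries came from the liver of another male mouse, 3 labelled WT and 3 labelled Vps15LKO. The mice were 5 weeks of age, had free access to food and were sampled at ZT6, where ZT counts hours from lights on. Vps15LKO mice are AlbCre+;Vps15 f/f: Cre driven by the albumin promoter, which acts in hepatocytes, deletes part of Vps15, the subunit that regulates class 3 PI3K, so the deletion is chronic and is not aimed at the other cells of the liver. The labels call the controls WT, and whether these carried floxed alleles is not given in the sources used here. No treatment was given, and a single time of day was sampled, so that a change of level and a shift of daily phase cannot be told apart.

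Long-chain fatty acids enter the hepatocyte with the help of transport proteins, are held by a binding protein in the cytosol and are joined to coenzyme A by acyl-CoA synthetases. The carnitine shuttle carries the acyl groups across the inner mitochondrial membrane, where each turn of beta-oxidation removes an acetyl-CoA and passes electrons to the respiratory chain. In the liver, most of all in fasting, part of this acetyl-CoA is turned into ketone bodies and released for other tissues. The nuclear receptor PPAR-alpha, which pairs with RXR, is known to drive many of these genes. Pyruvate dehydrogenase kinases sit at the branch to glucose use, since they switch off the enzyme that makes acetyl-CoA from pyruvate.

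The unit used throughout is the normalized count, which is the number of reads on a gene divided by the DESeq2 size factor of its library. Reads on genes numbered 16137093 to 18110223 per library. Size factors lay between 0.742 and 0.801 in the WT and between 1.23 and 1.41 in the Vps15LKO libraries, so equal shares of the reads give a lower normalized count in Vps15LKO liver. Scaling all libraries to the same number of reads instead raised the median over all tested genes of the log2 fold change (Vps15LKO over WT) from −0.017 to 0.70. Total-read scaling adds 0.72 to 0.73 to the log2 fold change of each of the 31 genes, so a fall under it is smaller and a rise larger than printed, and its values are given for the genes the results turn on. Where a sentence gives 3 values for a genotype, they are those of replicates 1, 2 and 3 in that order. The targeted gene, Pik3r4, which encodes Vps15, had normalized counts of 508, 573 and 459.7 in WT and 341, 362 and 355 in Vps15LKO livers. Its log2 fold change was −0.54 (SE 0.11, adjusted p = 0.0021), or 0.19 with total-read scaling, and reads from the floxed exons were not counted separately.

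The cell type markers moved with genotype as well. The 12 hepatocyte markers together took 15.3% to 15.7% of all reads in WT libraries and 8.26% to 10.7% in those of Vps15LKO, and all 12 were detected in every library. Of these markers 10 were called lower and none higher. Cholangiocyte markers took 0.00561% to 0.00653% of all reads in WT libraries and 0.0842% to 0.187% in those of Vps15LKO, with 7 of 7 called higher, 3 of which passed the filter on low counts through the Vps15LKO livers. Macrophage markers held 0.0205% to 0.0273% and 0.139% to 0.157%, with 8 of 10 called higher, and stellate cell and fibroblast markers 0.0301% to 0.0343% and 0.223% to 0.283%, with 10 of 10 called higher. Endothelial markers held 0.0277% to 0.0316% and 0.0419% to 0.0474%, with 4 of 8 called lower and 4 higher. Of all tested genes 33.0% were called lower and 33.5% higher. The lower calls of the endothelial markers Stab2 and Clec4g were each lost in 5 of the 6 omissions of a library. Those of the macrophage marker Marco and the stellate cell marker Lrat, both higher, were lost in 3 each. The lower call of the hepatocyte marker Apoa1 was lost in 2. The macrophage markers Clec4f and Timd4, not called, each changed call in 1. In whole liver, fewer hepatocytes and less RNA per hepatocyte cannot be told apart, and the part of these shifts in the values below was not tested beyond the within-library comparisons given further on.

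Transcripts of fatty acid oxidation were lower in Vps15LKO liver at nearly every step, and the largest falls were those of Acsl1, Fabp1 and Slc27a2. These genes act in fatty acid uptake and activation, but those steps did not fall as a whole. Slc27a1, Cd36 and Acsl4, of the same steps, rose, Slc27a4 (log2 fold change −0.45) and Acsl5 (−0.75) fell little and Acsl3 was not called. Mean normalized counts were 8.64-fold lower for Acsl1, 6.51-fold for Fabp1 and 5.81-fold for Slc27a2, and 6.13-fold higher for Pdk4. Genes were called in limma at a Benjamini-Hochberg adjusted p under 0.05 over all genes tested and a fold of at least 1.2, and adjusted p values below come from this test unless another is named. All 31 genes passed the filter on low counts (20 or more normalized counts in 3 livers or more). Of these, 24 were called lower and 5 higher, where 33.0% of all 15430 tested genes were called lower and 33.5% higher. The 5 higher genes were Slc27a1, Cd36, Acsl4, Acot2 and Pdk4, and Acsl3 and Vnn1 were not called. The median log2 fold change was −0.98 over the 31 genes and −0.017 over all tested genes. In 24 genes all 3 Vps15LKO livers were below all 3 WT livers and in 4 genes they were all above, against 36.8% and 36.4% of all tested genes. Exons of 10 of the 31 genes overlap those of another gene, by over 10% of their exon bases in Etfb, Acadvl, Bdh1 (13.7%) and Slc27a2 (11.2%), so that part of their reads may come from the neighbour. Over all 6 libraries the neighbour of Etfb (Gm45233) had 14516 reads, that of Acadvl (Dvl2) 16126 and that of Bdh1 (Gm15743) only 38. The neighbour of Slc27a2 had no value.

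**Figure D1:**
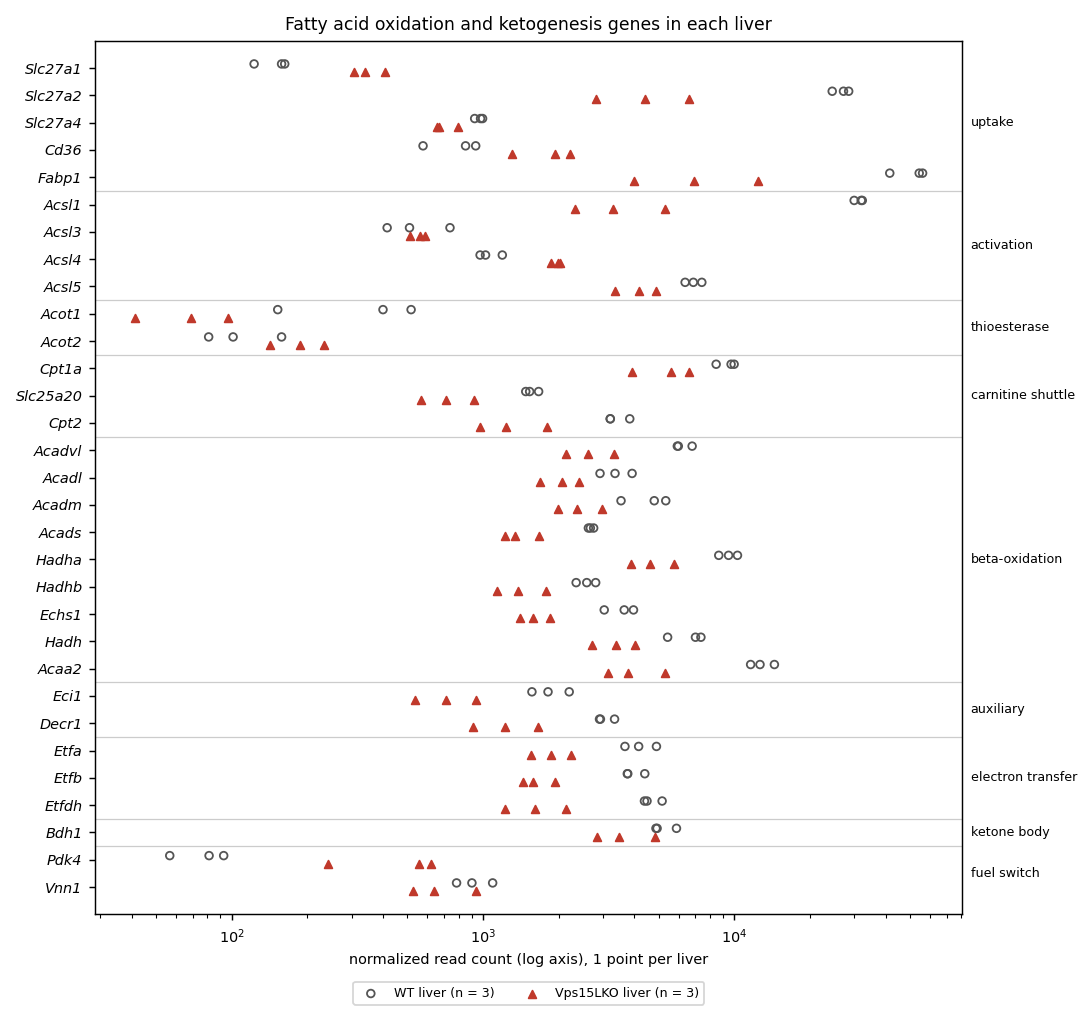
Normalized read counts (log axis) of the 31 genes in each of 3 WT livers (open circles) and 3 Vps15LKO livers (triangles), grouped by step of the pathway. Most triangles lie to the left of the circles, by the widest margin for Slc27a2, Fabp1 and Acsl1, and Slc27a1, Cd36, Acsl4 and Pdk4 lie to the right.

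The count of lower genes depended on how libraries were scaled. Under total-read scaling 15 of the 31 genes were called lower, 7 higher and 9 were not called, where 11.1% of all tested genes were lower and 66.8% higher. With quantile normalization 17 were lower, 4 higher and 10 were not called, against 37.7% and 30.4% of all tested genes. On the recovered reads edgeR called 23 lower and 5 higher, against 31.3% and 34.9%. The median of the 31 genes was −0.25 under total-read scaling, which stood −0.95 from the median of all tested genes, against −0.96 on the counts as deposited and −0.38 with quantile normalization. At a fold of at least 2, 15 genes were lower and 3 higher, where 12.7% and 20.9% of all tested genes were.

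**Figure D2:**
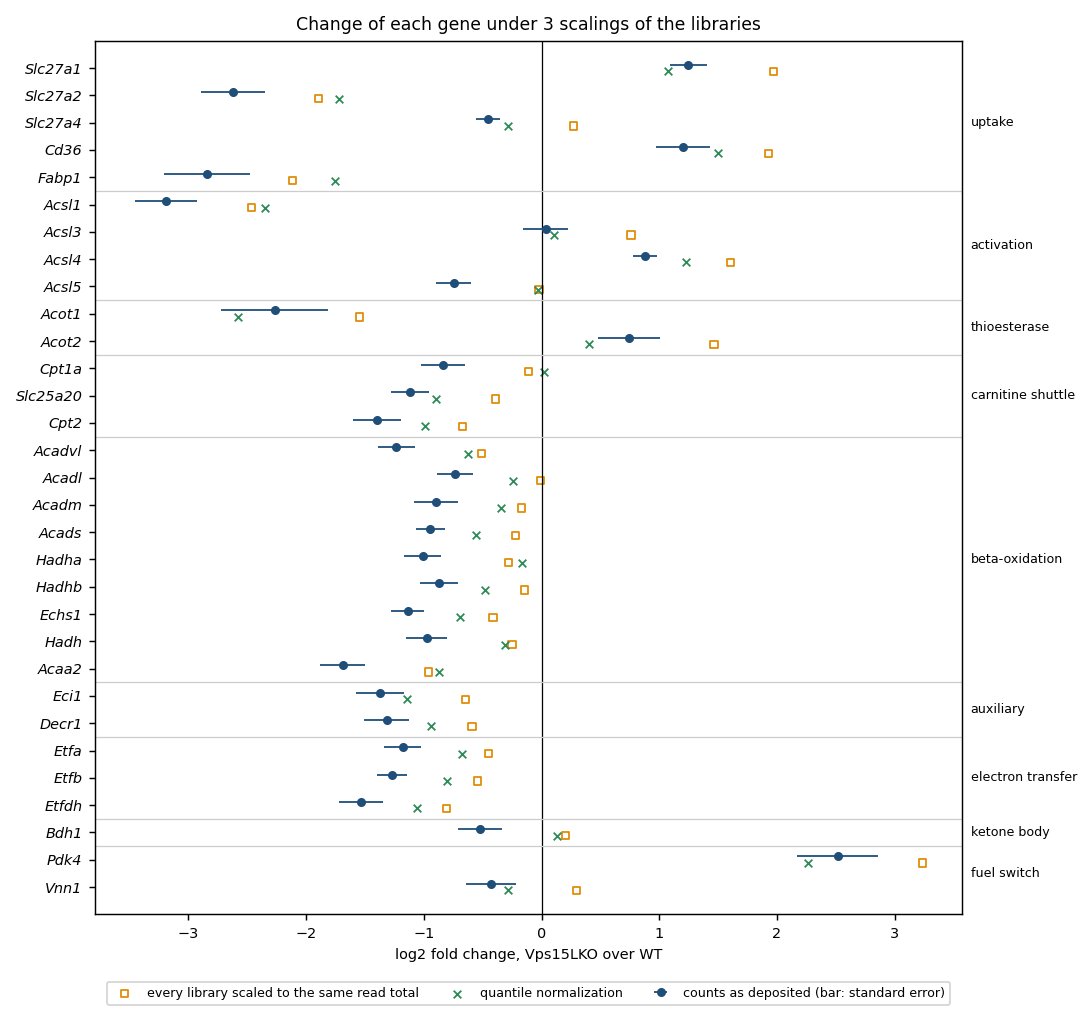
Log2 fold change of each gene, Vps15LKO over WT, from the counts as deposited (filled circles, bars are standard errors from limma, n = 3 livers per genotype), with every library scaled to the same read total (open squares) and after quantile normalization (crosses). Acsl1, Fabp1, Slc27a2 and Acot1 stay below −1.5 under all 3 scalings, whereas the genes of beta-oxidation, at −0.73 to −1.69 in the main fit, lie between −0.96 and −0.0072 under total-read scaling.

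Fabp1, the liver fatty acid binding protein that carries fatty acids in the cytosol, had the highest normalized count per kb of transcript of the 31 genes in both genotypes, 91729 ± 14422 per kb in WT and 14084 ± 7768 per kb in Vps15LKO livers (SD, n = 3). It lies on chromosome 6 from 71199827 to 71205023 (GRCm38), with normalized counts of 56161, 41569.9 and 54447 in WT and 6925, 12450.1 and 3990.4 in Vps15LKO livers. The groups were far apart, with the highest Vps15LKO liver well under the lowest WT liver, and the log2 fold change was −2.84 (SE 0.37, adjusted p = 1.8e-04), or −2.12 under total-read scaling. Its promoter is shown because it was the only one among these genes to hold a direct repeat of the kind bound by PPAR-alpha with RXR. The letters searched, on both strands, were AGGTCA followed after 1 base of any kind by AGGTCA, and a looser form with AGGNCA in both places, in which N is any base and which includes the first. RefSeq promoters of 300 bases, 250 before and 50 after the start site, were at hand for 28 of the 31 genes. The first form was in 0.0396% of 32851 promoters and in none of these genes, and the looser form was in 0.381% of all promoters and in Fabp1 alone. It starts 67 bases before the RefSeq start site, on the minus strand, so the capitals show it in reverse complement. The sequence runs over chr6:71199629-71199826 of GRCm38.p6, plus strand, and ends just before the start of the GENCODE gene.
Fabp1 promoter: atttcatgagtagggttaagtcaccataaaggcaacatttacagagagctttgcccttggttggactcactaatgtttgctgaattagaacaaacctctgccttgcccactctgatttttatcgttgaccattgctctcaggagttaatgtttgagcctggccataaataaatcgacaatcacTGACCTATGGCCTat
The E-box CACGTG, the site of the clock proteins Bmal1 and Clock, was in 7.15% of all promoters and, of these genes, in that of Slc27a1 alone, 202 bases before its start site. Such matches describe the letters of a short window and say nothing of binding.

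Among the transport proteins, Slc27a2 and Slc27a1 moved in opposite directions. Slc27a2 (FATP2), the main liver member of the family and also an activating enzyme for very long chains, on chromosome 2 from 126552407 to 126588243, had normalized counts of 28525, 24532 and 27204 in WT and 4411, 6578 and 2818 in Vps15LKO livers, a log2 fold change of −2.62 (SE 0.27, adjusted p = 5.4e-05), or −1.89 under total-read scaling. Slc27a1 (FATP1), better known from muscle and fat, had normalized counts of 158, 162 and 123 in WT and 339.8, 306 and 408 in Vps15LKO livers. Its Vps15LKO values were all above the WT values, with a log2 fold change of 1.25 (SE 0.16, adjusted p = 1.5e-04). Slc27a4 (FATP4), a broadly expressed member, had normalized counts of 977, 996 and 926 in WT and 658, 794 and 669.8 in Vps15LKO livers. This was a small fall without overlap, −0.45 (SE 0.10, adjusted p = 0.0036), but under total-read scaling it was called higher, at 0.27. Cd36, a scavenger receptor that takes up fatty acids and is present on macrophages and endothelium as well as hepatocytes, had normalized counts of 935, 852 and 577 in WT and 1933, 2220.3 and 1305 in Vps15LKO livers. All 3 Vps15LKO livers were higher, with a log2 fold change of 1.201 (SE 0.23, adjusted p = 0.0016), or 1.93 under total-read scaling. Macrophage markers rose together with Cd36 and Slc27a1, and their part in these rises was not tested.

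Acsl1 showed the largest fall of the 31 genes, except with quantile normalization, where Acot1 (−2.57) fell further than Acsl1 (−2.35). It encodes the main long-chain acyl-CoA synthetase of liver and lies on chromosome 8 from 46471037 to 46536051, with normalized counts of 32312, 32002 and 29997 in WT and 3278, 5309 and 2329 in Vps15LKO livers. WT livers were tightly grouped, and Vps15LKO livers held 11.6% of the WT mean. The log2 fold change was −3.19 (SE 0.26, adjusted p = 1.6e-05), and −2.47 under total-read scaling. Acsl5, a synthetase of mitochondria and endoplasmic reticulum, had normalized counts of 7425, 6870.0 and 6372 in WT and 4171, 4900.2 and 3359.6 in Vps15LKO livers. It fell less, by a log2 fold change of −0.75 (SE 0.15, adjusted p = 0.0021), and was not called under total-read scaling (−0.021) or quantile normalization (−0.028). Acsl4, which prefers arachidonic acid, had normalized counts of 973, 1023 and 1193 in WT and 2019.9, 1982 and 1858 in Vps15LKO livers. All 3 Vps15LKO livers were higher, with a log2 fold change of 0.88 (SE 0.10, adjusted p = 9.4e-05). Acsl3, linked to lipid droplets, had normalized counts of 739, 509.6 and 415 in WT and 562, 585 and 512 in Vps15LKO livers. Its groups overlapped, with a log2 fold change of 0.036 (SE 0.19, adjusted p = 0.88), and it was called higher (0.76) under total-read scaling.

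The makeup of these genes inside a library, which dividing the library by 1 factor cannot change, shifted accordingly. Counted per kb of transcript, Acsl1 held 79.6% to 80.9% of the reads of the 4 Acsl genes in WT and 31.9% to 44.8% in Vps15LKO livers. The share of Acsl5 was 15.8% to 16.8% in WT and 38.0% to 42.3% in Vps15LKO livers, and that of Acsl4 was 1.77% to 2.37% and 12.3% to 18.8%. In Vps15LKO livers 1 and 3 Acsl5 therefore stood above Acsl1 per kb, and in liver 2 it did not. Slc27a2 held 96.5% to 97.2% of the reads per kb of Slc27a1, Slc27a2 and Slc27a4 in WT and 75.6% to 88.1% in Vps15LKO livers, and remained the largest of the 3 in every liver. None of these shares overlapped between genotypes.

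**Figure D3:**
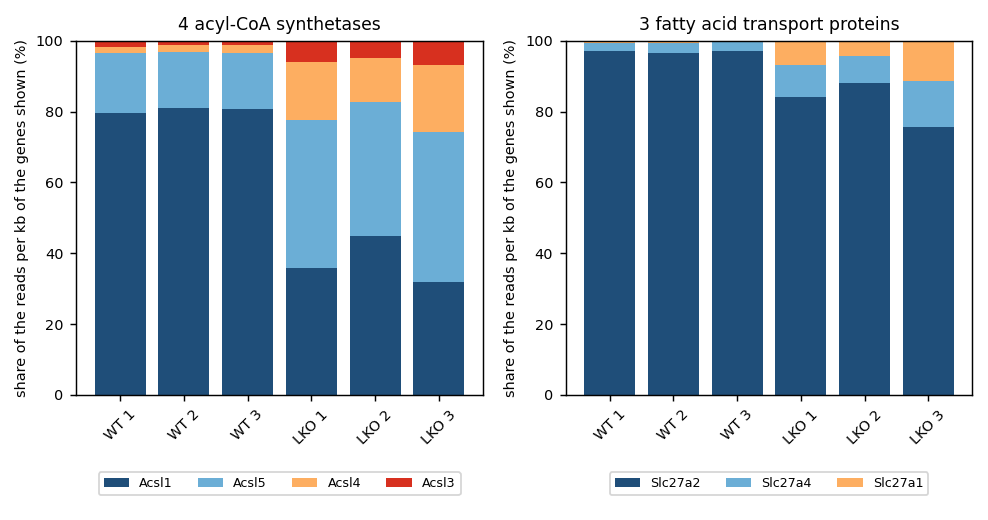
Share of each gene in the reads per kb of the 4 Acsl genes or the 3 Slc27a genes among the 31 (%, stacked bars that sum to 100; Slc27a3 and Slc27a5 are not in this sum), in 3 WT and 3 Vps15LKO (LKO) livers. Acsl1 holds 79.6% to 80.9% in WT and 31.9% to 44.8% in Vps15LKO livers, and Slc27a2 96.5% to 97.2% and 75.6% to 88.1%.

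Acot1 and Acot2 encode thioesterases that free fatty acids from coenzyme A in the cytosol and in mitochondria. The genes are neighbours on chromosome 12 and nearly identical in sequence, so the split of their reads is uncertain. Acot1 had normalized counts of 517, 399.7 and 152 in WT and 68.7, 96.4 and 41.0 in Vps15LKO livers. WT replicate 3 stood low, and the groups still did not overlap (log2 fold change −2.27, SE 0.46, adjusted p = 0.0022, or −1.55 under total-read scaling). Acot2 had normalized counts of 158, 101 and 80.9 in WT and 186, 232 and 142 in Vps15LKO livers, with overlapping groups and a log2 fold change of 0.74 (SE 0.26, adjusted p = 0.034). The call for Acot2 was lost without WT replicate 2 (0.69) or 3 (0.53) and without Vps15LKO replicate 1 (0.73) or 2 (0.58). It was not called with quantile normalization either (0.41).

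All 3 genes of the carnitine shuttle were called lower, where 33.0% of all tested genes were, and Cpt1a had the smallest fall of the 3. Cpt1a, the outer membrane enzyme that is held back by malonyl-CoA and limits entry, lies on chromosome 19 from 3322334 to 3385733, with normalized counts of 8468, 9710.5 and 9983 in WT and 5585, 6589.7 and 3916 in Vps15LKO livers. Its log2 fold change of −0.84 (SE 0.19, adjusted p = 0.0041) came to −0.11 under total-read scaling and 0.022 with quantile normalization, and neither was called. Slc25a20, the carrier that exchanges acylcarnitine for carnitine, had normalized counts of 1664, 1479 and 1533 in WT and 710.2, 922 and 564 in Vps15LKO livers, without overlap, and fell by 1.12 (SE 0.16, adjusted p = 3.7e-04) on the log2 scale. Cpt2, which hands the acyl group back to coenzyme A in the matrix, had normalized counts of 3836, 3210.2 and 3207 in WT and 1229, 1803 and 968 in Vps15LKO livers. Its log2 fold change was −1.40 (SE 0.21, adjusted p = 3.7e-04), and both Slc25a20 and Cpt2 were called lower under all 3 scalings. Of all tested genes 11.1% were lower under total-read scaling and 37.7% with quantile normalization.

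Every gene of the beta-oxidation spiral was lower in all 3 Vps15LKO livers than in any WT liver, where 36.8% of all tested genes were. The spiral begins with the acyl-CoA dehydrogenases, each named for its chain length. Acadvl, for very long chains, had normalized counts of 6794, 5986 and 5933 in WT and 2614, 3314 and 2141 in Vps15LKO livers, a log2 fold change of −1.23 (SE 0.16, adjusted p = 1.8e-04), or −0.51 under total-read scaling. A large part of its exon sequence, 42.9%, overlaps Dvl2 on the other strand, and whether strand was used in counting is not given in the sources used here. Acadl, Acadm and Acads, for long, medium and short chains, had log2 fold changes of −0.73, −0.90 and −0.95 (adjusted p = 0.0029, 0.0028 and 1.8e-04). Acadl had normalized counts of 3919.5, 3351 and 2921 in WT and 2066, 2399 and 1683 in Vps15LKO livers, and Acads had normalized counts of 2755, 2626 and 2673 in WT and 1334, 1664 and 1217 in Vps15LKO livers. For Acadm, the enzyme missing in the commonest inherited defect of the pathway, the values were normalized counts of 5336, 4802 and 3541 in WT and 2373, 2974 and 1986 in Vps15LKO livers. These 3 genes were not called under total-read scaling, where they lay at −0.007, −0.17 and −0.22.

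Hadha and Hadhb, the 2 subunits of the trifunctional protein, lie side by side on chromosome 5 in opposite orientations. Hadha had normalized counts of 10296, 9488 and 8673 in WT and 4617, 5769.7 and 3892 in Vps15LKO livers, and Hadhb had normalized counts of 2807, 2347 and 2587 in WT and 1373, 1775 and 1140.1 in Vps15LKO livers. Both were called lower, with log2 fold changes of −1.01 and −0.87 (adjusted p = 5.3e-04 and 0.0012). Hadhb was not called under total-read scaling (−0.15) and Hadha was not called with quantile normalization (−0.16). Echs1, the hydratase for shorter chains, fell by 1.14 (SE 0.14, adjusted p = 1.3e-04) on the log2 scale, and Hadh, the dehydrogenase of shorter hydroxyacyl chains, by 0.98 (SE 0.17, adjusted p = 0.0011). Echs1 had normalized counts of 3969.9, 3646 and 3036 in WT and 1579, 1855 and 1406 in Vps15LKO livers, and Hadh had normalized counts of 7364, 7005 and 5427 in WT and 3384, 4012 and 2707 in Vps15LKO livers. Neither overlapped between genotypes, but Hadh was not called under total-read scaling (−0.25) or quantile normalization (−0.31). Acaa2, the thiolase that closes the cycle, had normalized counts of 14441, 12657 and 11614 in WT and 3786, 5309 and 3154 in Vps15LKO livers. All WT livers were far above all Vps15LKO livers. Acaa2 showed the largest fall of the spiral, −1.69 (SE 0.19, adjusted p = 9.0e-05), and kept −0.96 under total-read scaling. Of the 9 genes, 4 were called lower and none higher under total-read scaling, where 11.1% of all tested genes were lower and 66.8% higher. With quantile normalization 5 were lower and none higher, where 37.7% and 30.4% of all were.

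The helpers of the spiral were lower as well. Eci1, which shifts double bonds so that unsaturated chains can be oxidized, had normalized counts of 2202, 1814 and 1565 in WT and 713, 940.0 and 534 in Vps15LKO livers and a log2 fold change of −1.37 (SE 0.20, adjusted p = 4.0e-04). Decr1, the reductase that removes conjugated double bonds, had normalized counts of 3337, 2932 and 2908 in WT and 1217, 1661 and 909 in Vps15LKO livers and a log2 fold change of −1.32 (SE 0.20, adjusted p = 3.9e-04). The electron transfer flavoprotein takes electrons from the acyl-CoA dehydrogenases and passes them to Etfdh, which reduces ubiquinone. Etfdh had normalized counts of 5161, 4493 and 4389 in WT and 1612, 2138 and 1217 in Vps15LKO livers, a log2 fold change of −1.53 (SE 0.19, adjusted p = 1.3e-04). Etfa and Etfb, the 2 subunits of the flavoprotein, lay at −1.18 and −1.27. Etfa had normalized counts of 4899, 4162 and 3671 in WT and 1857, 2234 and 1555 in Vps15LKO livers, and Etfb had normalized counts of 4402, 3751 and 3766 in WT and 1578, 1932 and 1446 in Vps15LKO livers. Neither overlapped, and 58.2% of the exon sequence of Etfb is shared with a predicted gene, Gm45233, on the same strand. All 5 genes were called lower under all 3 scalings. Of all tested genes 33.0% were called lower on the counts as deposited, 11.1% under total-read scaling and 37.7% with quantile normalization.

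Bdh1, which interconverts acetoacetate and beta-hydroxybutyrate in mitochondria, had the smallest fall of the mitochondrial enzymes called lower. It had normalized counts of 5886, 4878 and 4928 in WT and 3488, 4837 and 2842 in Vps15LKO livers, where the highest Vps15LKO liver lay just under the lowest WT liver, and a log2 fold change of −0.52 (SE 0.19, adjusted p = 0.036). The call was lost without any 1 WT library (−0.43, −0.57 and −0.56) and without Vps15LKO replicate 1 (−0.49) or 3 (−0.34), and with edgeR (−0.45). Under total-read scaling Bdh1 lay at 0.21 and with quantile normalization at 0.13, and neither was called.

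Pdk4, the pyruvate dehydrogenase kinase that fasting and PPAR-alpha are known to raise, moved against most of the others. It lies on chromosome 6 from 5483351 to 5496309, with normalized counts of 92.8, 81.2 and 56.6 in WT and 618, 555 and 241 in Vps15LKO livers. Even the lowest Vps15LKO liver was above every WT liver, and the log2 fold change was 2.52 (SE 0.34, adjusted p = 2.5e-04), or 3.24 under total-read scaling. Vnn1, a pantetheinase that takes part in coenzyme A turnover and is a known PPAR-alpha target, had normalized counts of 903, 784 and 1092 in WT and 639, 942 and 525 in Vps15LKO livers. Its groups overlapped, it was not called (log2 fold change −0.43, SE 0.21, adjusted p = 0.10), and without Vps15LKO replicate 2, the highest of its group, it was called lower at −0.66.

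Within-library ratios of pairs of these genes do not depend on the size factor either, though quantile normalization, which is not a single factor per library, can move them. For 12 pairs an exact permutation test over the 6 livers was run, two-sided, whose smallest possible p is 0.1. In 9 pairs the genotypes did not overlap, which gave p = 0.1 (exact) and 0.13 after Benjamini-Hochberg adjustment over the 12 pairs, so none could pass the threshold. How often pairs of other genes separate the genotypes was not counted, so the 9 pairs cannot be read as particular to these genes. Taken singly, 36.8% of all tested genes were lower and 36.4% higher without overlap. The ratio of Acsl1 to Acsl4 was 33.2, 31.3 and 25.1 in WT and 1.62, 2.68 and 1.25 in Vps15LKO livers, a difference of −4.08 in mean log2 ratio. That of Fabp1 to Cd36 was 60.1, 48.8 and 94.4 in WT and 3.58, 5.61 and 3.06 in Vps15LKO livers, a log2 difference of −4.05. Both ratios were lower in every Vps15LKO liver than in any WT liver. The log2 difference was −3.23 for Acsl1 to Acsl3, −2.45 for Acsl1 to Acsl5, −3.87 for Slc27a2 to Slc27a1, −2.17 for Slc27a2 to Slc27a4 and −3.03 for Acot1 to Acot2. The mean log2 ratio was higher in Vps15LKO livers by 0.56 for Cpt1a to Cpt2 and by 0.50 for Acadl to Acadvl. Ratios of subunits of one complex overlapped between genotypes. Hadha to Hadhb was 3.67, 4.04 and 3.35 in WT and 3.36, 3.25 and 3.41 in Vps15LKO livers, a log2 difference of −0.14 (exact p = 0.3) that turned to 0.32 with quantile normalization, and Etfa to Etfb differed by 0.094 (exact p = 0.3). Acadm to Acads differed by 0.048 (exact p = 1).

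Together the 31 genes took 0.876% to 0.964% of all reads in WT libraries and 0.403% to 0.608% in those of Vps15LKO. Fabp1, Acsl1 and Slc27a2 made up 49.5% to 54.5% of these reads in WT and 17.8% to 27.3% in Vps15LKO livers. The 9 genes of the spiral took up 22.6% to 26.2% of them in WT and 32.6% to 37.5% in Vps15LKO livers. These 3 genes were picked for their large falls and the shares sum to 100%, so that the combined share of the other genes had to rise. As a share of all reads the spiral took 0.213% to 0.244% in WT and 0.151% to 0.198% in Vps15LKO libraries.

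Levels in normalized counts per kb of transcript, the scale on which genes can be set side by side, spanned a wide range. After Fabp1 the highest levels in WT livers were those of Slc27a2, 9169 ± 697 per kb in WT and 1577 ± 647 per kb in Vps15LKO livers, Acaa2, 8512 ± 943 per kb in WT and 2693 ± 731 per kb in Vps15LKO livers, and Acsl1, 8067 ± 322 per kb in WT and 934 ± 391 per kb in Vps15LKO livers (SD, n = 3). In WT livers the levels of Slc27a2 and Acaa2 lay within their spread of each other. Acsl1 was 4th of the 31 genes per kb in WT and 15th in Vps15LKO livers, whereas Acaa2 went from 3rd to 2nd and Slc27a2 from 2nd to 5th. Cpt1a, 2174 ± 187 per kb in WT and 1242 ± 313 per kb in Vps15LKO livers, went from 12th to 7th and Bdh1 from 15th to 10th, though several neighbours in this range, such as Cpt1a and Acadvl (1241 ± 272 per kb) in Vps15LKO livers, did not differ beyond their spread. Pdk4 was the lowest of the 31 in WT, 22.1 ± 5.30 per kb in WT and 135 ± 57.9 per kb in Vps15LKO livers, and 28th in Vps15LKO livers, where Acot1 was the lowest.

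Set against the hepatocyte markers of the same library, the picture turned for most genes. Each gene was divided by the geometric mean of the 12 hepatocyte markers in its library. On this scale Acsl1 (−1.47 in log2), Fabp1 (−1.12) and Slc27a2 (−0.90) were lower without overlap, 3 of 31 genes where 3.04% of all tested genes were. A further 24 were higher without overlap, where 91.5% of all tested genes were, so that a rise on this scale was the rule in these libraries. The spiral genes lay between 0.037 for Acaa2 and 0.99 for Acadl. Pdk4 lay at 4.26, Slc27a1 at 2.98 and Cd36 at 2.93. Hepatocyte markers are themselves lower in Vps15LKO liver (median log2 fold change −1.48), and a shared fall of hepatocyte RNA and a fall per hepatocyte cannot be told apart.

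Against 21 nuclear-encoded subunits of the respiratory chain, another mitochondrial set, the 31 genes had a median log2 difference of −0.060. On this scale 12 genes were lower without overlap, where 9.11% of all tested genes were, and 8 were higher, where 75.6% were. The 12 included Acsl1 (−2.28), Fabp1 (−1.93), Slc27a2 (−1.70), Acaa2 (−0.77) and Etfdh (−0.62). Cpt1a (0.080), Acadm (0.018), Acads (−0.030), Hadha (−0.094), Hadhb (0.044) and Hadh (−0.060) were among the 11 genes whose genotypes overlapped on this scale. Set against 16 genes of the citric acid cycle, 15 genes were lower without overlap and 7 higher, where 11.5% and 69.9% of all tested genes were.

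**Figure D4:**
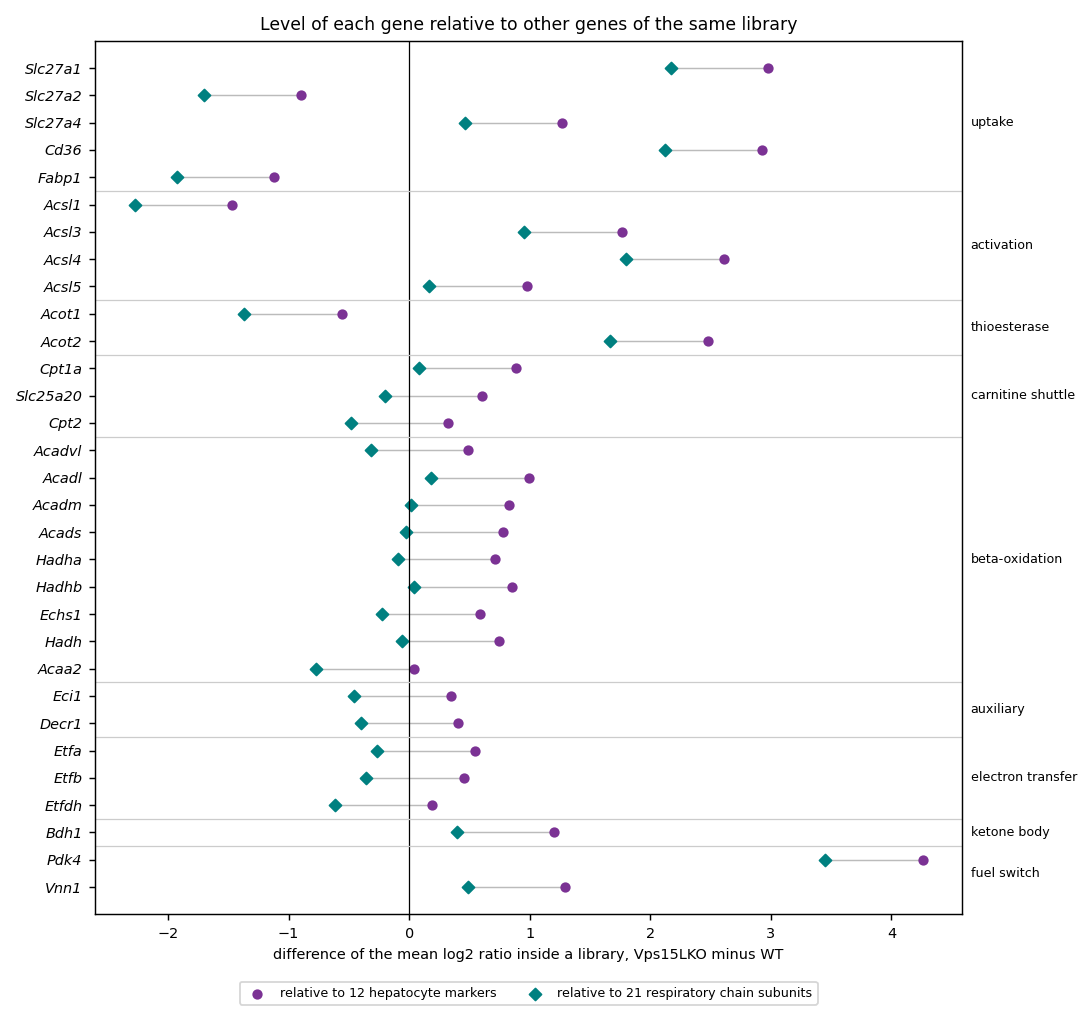
Difference between genotypes (Vps15LKO minus WT, n = 3 livers each) in the mean log2 ratio of each gene to the geometric mean of 12 hepatocyte markers (circles) or of 21 respiratory chain subunits (diamonds) in the same library. Acsl1, Fabp1, Slc27a2 and Acot1 are the genes left of 0 against both, and Acot1 overlapped between genotypes on both; most spiral genes lie right of 0 against hepatocyte markers and near 0 against the respiratory chain.

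The 3 Vps15LKO livers were not alike. In 27 of the 31 genes replicate 2 was the highest and replicate 3 the lowest of the 3, an order found in 28.3% of all tested genes. It was also the order of 11 of 12 hepatocyte markers and 17 of 21 respiratory chain subunits. The 7 cholangiocyte markers had the opposite order, with replicate 3 highest and replicate 2 lowest in 7 of 7, an order found in 20.1% of all tested genes. Fabp1, for example, was 12450.1 in replicate 2 and 3990.4 in replicate 3. What sets the livers apart was not tested.

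Of 5 other genes of ketone body handling, 2 were called lower, 1 higher and 2 were not called, near the 33.0% lower and 33.5% higher of all tested genes. Acat1, which joins 2 acetyl-CoA, had normalized counts of 8608, 7149 and 6625 in WT and 2853, 3709 and 2244 in Vps15LKO livers. The groups did not overlap, with a log2 fold change of −1.37 (SE 0.19, adjusted p = 2.4e-04) and −0.64 under total-read scaling. Bdh2, a cytosolic dehydrogenase, lay at −1.59 (SE 0.23, adjusted p = 3.0e-04). Oxct1, the enzyme that lets other tissues burn ketone bodies and that hepatocytes normally lack, had normalized counts of 67.6, 81.2 and 99.8 in WT and 328, 369 and 396 in Vps15LKO livers. It rose by 2.14 (SE 0.16, adjusted p = 1.1e-05) on the log2 scale, while markers of non-hepatocyte cells rose too, and their part in it was not tested. The monocarboxylate carriers Slc16a1 (log2 fold change 0.057, SE 0.18, adjusted p = 0.79) and Slc16a6 (log2 fold change 0.31, SE 0.28, adjusted p = 0.35) were not called. With equal read totals 2 of the 5 genes were called lower and 3 higher, where 11.1% and 66.8% of all tested genes were. These shares of all tested genes, 33.0% and 33.5% in the main fit and 11.1% and 66.8% with equal read totals, are the background for each list that follows.

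Of 9 tested genes (10 listed) of carnitine supply and malonyl-CoA, 6 were called lower, 1 higher and 2 were not called (median −1.12). Bbox1, the last enzyme of carnitine synthesis, had normalized counts of 3673, 3356 and 2863 in WT and 945, 1174 and 643 in Vps15LKO livers and a log2 fold change of −1.87 (SE 0.20, adjusted p = 7.1e-05). Aldh9a1, an earlier step of the same synthesis, lay at −1.59, and Slc22a5, the carnitine importer, at −1.12. Acacb, which makes the malonyl-CoA that restrains Cpt1a, lay at −1.85 (SE 0.27, adjusted p = 3.6e-04), and Mlycd, which removes malonyl-CoA, at −1.51 (SE 0.15, adjusted p = 4.1e-05). Enzymes on both sides of this brake were thus lower. Acaca, the carboxylase of fatty acid synthesis, lay at −0.61, and at 0.11 under total-read scaling. Cpt1c, a brain form of low count here, had normalized counts of 9.28, 12.5 and 14.8 in WT and 47.3, 39.7 and 64.4 in Vps15LKO livers. It is the 1 gene of the list called higher, and it passed the filter only through the Vps15LKO livers, so that it had to differ. Cpt1b, the muscle form (0.29), and Crat, which acts on short chains (−0.12), were not called. Under total-read scaling 4 of the 9 were lower and 3 higher.

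The transcript of PPAR-alpha itself fell. Ppara had normalized counts of 1966, 2573 and 2387 in WT and 626, 717 and 426 in Vps15LKO livers, a log2 fold change of −1.99 (SE 0.19, adjusted p = 3.5e-05) and −1.27 under total-read scaling. Its partner Rxra lay at −1.42 (SE 0.15, adjusted p = 5.4e-05). Pparg and Ppard, the other two receptors of the family, rose, with normalized counts of 316, 316 and 151 in WT and 574, 626 and 516 in Vps15LKO livers for Pparg (log2 fold change 1.203, SE 0.26, adjusted p = 0.0035) and a log2 fold change of 0.99 (SE 0.093, adjusted p = 3.3e-05) for Ppard. Of 16 genes for PPAR-alpha and its partners, 11 were called lower, 2 higher and 3 were not called (median −0.83), and under total-read scaling the calls were 6 lower and 5 higher. Klf15, a factor of the fasting response, had normalized counts of 4406, 3687 and 3873 in WT and 779, 882 and 659 in Vps15LKO livers (log2 fold change −2.37). Sirt3, the mitochondrial deacetylase, lay at −1.70, Hnf4a, which maintains hepatocyte identity and is also on the hepatocyte list, at −1.38, Lpin1, a coactivator and phosphatase, at −1.25 and Creb3l3, a fasting-induced factor, at −1.04. The other lower genes were Ppargc1b (−0.97), Ppargc1a (−0.69), Ncor1 (−0.54) and Esrra (−0.53), of which Ppargc1a, Ncor1 and Esrra were above 0 under total-read scaling. The call for Ppargc1a was lost when any of 4 libraries was left out (WT 1 or 2, Vps15LKO 1 or 2, range over all 6 omissions −0.97 to −0.51) and that for Ppargc1b without WT replicate 2 (range −1.15 to −0.64). Sirt1 (−0.25), Med1 (−0.32) and Foxa2 (−0.24) were not called, though Sirt1 and Med1 were each called lower in 1 of the omissions of a library.

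**Figure D5:**
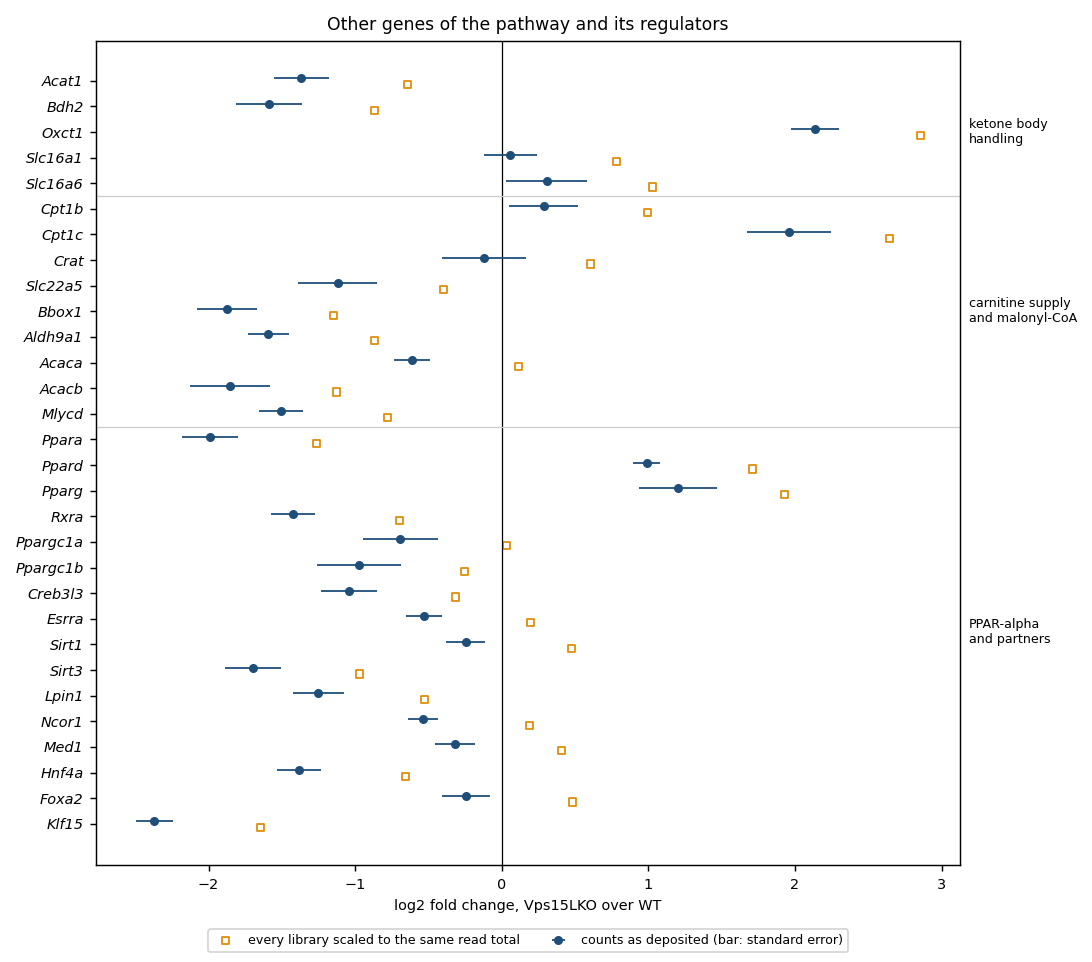
Log2 fold change, Vps15LKO over WT, of genes of ketone body handling, of carnitine supply and malonyl-CoA, and of PPAR-alpha and its partners, from the counts as deposited (filled circles, bars are standard errors, n = 3 livers per genotype) and with equal read totals (open squares). Ppara lies near −2 and Oxct1 near 2, and the squares stand to the right of the circles throughout.

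Known PPAR-alpha targets outside mitochondria were mostly lower. Of 20 genes, 16 were called lower, 2 higher and 2 were not called (median −1.40), where 33.0% of all tested genes were lower and 33.5% higher, and 12 were lower and 4 higher under total-read scaling, where 11.1% and 66.8% of all were. The largest falls were in fatty acid omega-hydroxylases: Cyp4a14 had normalized counts of 16879, 12186 and 6578 in WT and 661, 2040.4 and 272 in Vps15LKO livers (log2 fold change −3.95, SE 0.65, adjusted p = 6.8e-04), Cyp4a32 lay at −3.81 and Cyp4a10 at −3.54. Single Vps15LKO livers weighed on these sizes: Cyp4a14 lay at −4.70 without replicate 2 and at −3.25 without replicate 3, and Cyp4a32 at −3.15 without replicate 3. The other Cyp4a gene of the list was not called. Fgf21, a hormone of the fasted liver, had normalized counts of 37.1, 12.5 and 25.6 in WT and 139, 283 and 60.8 in Vps15LKO livers. It is 1 of the 2 genes called higher, but it passed the filter only through the Vps15LKO livers, so its call supports no rise. Plin2, which coats lipid droplets, had normalized counts of 8661, 7707 and 8602 in WT and 12945, 14033 and 8913 in Vps15LKO livers (log2 fold change 0.50, SE 0.18, adjusted p = 0.037). Its call was lost when any library but Vps15LKO replicate 3 was left out (range 0.37 to 0.70).

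Of 11 genes for the subunits of pyruvate dehydrogenase, its other kinases and its phosphatases, 9 were called lower and 2 higher (median −0.88), and 3 were lower and 2 higher under total-read scaling. Pdk3, a kinase of low count in liver, had normalized counts of 13.3, 7.49 and 9.44 in WT and 70.3, 81.8 and 103 in Vps15LKO livers. It passed the filter only through the Vps15LKO livers, so that it had to differ to be tested at all. Pdk1 (−1.96) and Pdk2 (−1.31), the latter the most counted kinase in WT liver, fell. Of the phosphatases that reverse the kinases, Pdp1 rose (1.997) and Pdp2 fell (−1.79). In normalized counts Pdk2 still stood above Pdk4, at 1562, 1848 and 1323 in the Vps15LKO livers, though counts of different genes are not adjusted for length.

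The remaining lists gave the surroundings of the pathway. Of 16 tested genes (17 listed) of other mitochondrial acyl-CoA oxidation, 13 were called lower and 1 higher (median −1.52), and 10 were lower and 5 higher under total-read scaling. Acsm1, a medium-chain synthetase (−1.99), Acad11, a dehydrogenase of very long chains (−1.93), and Acsm3 (−1.77) fell most. The riser was Acot9, a mitochondrial thioesterase, with normalized counts of 47.7, 60.0 and 52.6 in WT and 303, 312 and 336 in Vps15LKO livers (log2 fold change 2.55, SE 0.14, adjusted p = 1.9e-06). Of 12 tested genes (16 listed) of other fatty acid uptake and activation, 6 were lower and 4 higher (median −0.67), and 3 were lower and 5 higher under total-read scaling. Slc27a5, the bile acid and very long chain synthetase of liver, had normalized counts of 19412, 19332 and 14820.0 in WT and 2336, 3879 and 1777 in Vps15LKO livers (log2 fold change −2.81, SE 0.26, adjusted p = 3.1e-05), and Acot12 (−1.495) and Dbi, the acyl-CoA binding protein (−1.34), followed. Of the 4 called higher, Fabp7 had normalized counts of 27.8, 19.99 and 21.6 in WT and 115, 129.7 and 77.1 in Vps15LKO livers and Slc27a3 had normalized counts of 7.96, 8.74 and 9.44 in WT and 32.1, 30.0 and 37.5 in Vps15LKO livers. Both passed the filter only through the Vps15LKO livers, so their calls support no rise. Fabp5 was called higher as well (1.54). For Fabp5 the groups overlapped, since WT replicate 3 had 1213 and the other two WT livers 187 and 282, and its call was lost when any library but that one was left out (range 0.996 to 2.34).

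The citric acid cycle and the respiratory chain, which use the products of oxidation, were lower too. In the cycle 15 of 16 genes were called lower (median −0.77), led by Sdha (−1.31), Fh1 (−1.29) and Sucla2 (−1.19), and under total-read scaling the calls were 7 lower and 5 higher. All 21 tested (22 listed) respiratory chain subunits were called lower (median −0.94), led by Cyc1 (−1.13), Atp5a1 (−1.08) and Ndufs1 (−1.05), and under total-read scaling the calls were 5 lower and none higher.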

How the data were processed

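Liver RNA of 3 WT and 3 Vps15LKO mice was sequenced from poly(A)-selected libraries made with second-strand removal. The authors cleaned the reads (SOAPnuke), aligned them to GRCm38 (HISAT2), assigned them to genes (featureCounts) and divided by size factors (DESeq2). Versions and the strand setting are not given in the sources used here. The deposited signal is the normalized count, for 56305 genes without a filter. All values (100%, tolerance 0.01 reads) were whole multiples of 1 read, so reads were recovered. No column was left unused.

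The test took genes whose normalized count reached 20 in 3 or more livers and used limma 3.58.1 (lmFit, eBayes with a trend, R 4.3.3) on log2(normalized count + 1), a scale on which fold changes of low genes are understated, with Benjamini-Hochberg adjustment. Standard errors (SE) are those of limma. With 3 livers per genotype, p-values measure the spread between these livers only. Counting error is included in that spread. On the recovered reads edgeR 4.0.16 called 4822 genes lower and 5383 higher, and DESeq2 1.42.0 was also run. The comparison was tested on simulated data first, where 68.9% of 196 changed genes were recovered, with 7 false calls among 15414 tested genes. Few genes changed in the simulation, unlike in these data, so it says nothing of the choice of scaling.

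Symbols, coordinates and transcript lengths come from GENCODE release M21 (GRCm38), which matched 55141 genes; levels per kb use the longest principal protein-coding transcript. Promoters come from RefSeq. The genes described and all lists were chosen with earlier results of these data known, so no list was tested as a set. Named are all 31 genes, Pik3r4, all genes of 3 lists (ketone body handling, carnitine supply and malonyl-CoA, PPAR-alpha and its partners) and, from the other pathway lists, up to 3 called genes with the largest fall and 3 with the largest rise, except for 3 listed genes that are not reported here. Alternatives were pseudocounts, filters, scalings, tools, thresholds, a replicate block and each library left out. No adipocyte marker passed the filter, at a sum of 0.707 to 56.6 normalized counts. Tables and plots were made with Python 3.11.15, numpy 2.4.6, pandas 2.3.3 and matplotlib 3.10.9.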

Additional observations from a re-analysis of the deposited data

How the results depend on the processing

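Over 22 alternatives the number of the 31 genes called lower ran from 15 to 25 and the number called higher from 3 to 7. Total-read scaling gave 15 lower genes, and 1712 lower and 10300 higher among all tested genes, because it raises all fold changes together. A fold of at least 2 gave 15 lower and 3 higher of the 31, and 1957 and 3228 of all genes, since fewer can pass. With each library left out in turn, 23 to 25 of the 31 were lower and 4 to 5 higher, and 4450 to 5070 of all genes lower and 4648 to 5152 higher. The log2 ratio of Acadm to Acads ran from −0.12 to 0.15, and the other 11 ratios kept their sign. With quantile normalization, an alternative for ratios chosen after seeing the data, Hadha to Hadhb turned to 0.32 and the other 11 kept their sign. The labels do not say whether the replicate numbers pair the livers. Deviations of same-numbered livers correlated at −0.01, −0.01 and 0.05, which with 3 livers per genotype cannot exclude a weak pairing. With a replicate block 24 of the 31 genes were lower and 5 higher, and 4983 and 5065 of all genes, so the block changed no count by 1.5 times.

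These log2 fold changes turned sign. Under total-read scaling they were 0.27 for Slc27a4, 0.21 for Bdh1, 0.30 for Vnn1, 0.19 for Pik3r4, 0.60 for Crat, 0.11 for Acaca, 0.030 for Ppargc1a, 0.19 for Esrra, 0.48 for Sirt1, 0.19 for Ncor1, 0.41 for Med1, 0.48 for Foxa2, 0.10 for Tek and 0.30 for Clec4g. With quantile normalization they were 0.022 for Cpt1a, 0.13 for Bdh1, −0.42 for Cpt1b and 0.077 for Crat, and with upper-quartile scaling 0.00086 for Crat. With each library left out they ran from −0.15 to 0.26 for Acsl3, −0.15 to 0.21 for Slc16a1 and −0.47 to 0.13 for Crat. The cause of the quantile and leave-one-out changes was not tested. Of the other values of single genes, 2182 kept direction and side of the threshold, 107 kept direction but lost the call and 10 kept direction and gained it. Depth limits Acot1, Acot2 and Pdk4 most among the 31 genes, where the lowest library held 42 reads.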
